A study of Mus musculus with 16 samples.

Results

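Large Polycomb domains are described here in macrophages recruited to injured calf muscle. A domain was a stretch of at least 15 kb that was marked by trimethylation of lysine 27 on histone H3 (H3K27me3) in every library of that mark. The H3K27me3 peaks of the 4 libraries were merged wherever they overlapped by at least 1 bp, regions with a peak in all 4 libraries were kept as shared regions, and those 15 kb wide or more were taken as domains. This gave 1054 domains among 7515 shared regions, out of 16871 merged regions in all. The domains were thus selected on the width and presence of H3K27me3 peaks, and the H3K27me3 values below describe them.

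Male C57BL6J wild type mice aged 8 to 12 weeks underwent hind limb ischemia by closing the femoral artery, and macrophages positive for CD45, CD11b, F4/80 and CD64 were sorted from the ischemic calf at 2 or 4 days post injury (dpi). Nuclei were profiled by CUT&Tag, in which an antibody guides a transposase to a chromatin mark, against H3K27me3 and 3 marks of active chromatin: trimethylation of lysine 4 (H3K4me3), found at promoters, acetylation of lysine 27 (H3K27ac), found at active promoters and enhancers, and lactylation of lysine 18 (H3K18la). Each mark had 2 biological replicate libraries per time point, from different mice at each time, which gives 16 libraries, all of injured muscle, so that the series holds no uninjured reference. The gate defines the cells, and marker genes could not be checked because the annotation at hand was of another genome build.

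H3K27me3 is written by the Polycomb repressive complex PRC2 and is read by PRC1. PRC2 also binds its own product, which lets the mark spread from sites rich in CpG into broad domains. Such domains are best known over developmental regulators of other lineages, which stay silent in a differentiated cell. Promoters inside them often carry H3K4me3 as well, a state called bivalent, while acetylation of the same lysine 27 excludes its methylation on that histone tail.

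The H3K27me3 lists held 12060 to 14836 peaks that covered 52.1 to 80.9 Mb. H3K4me3 lists covered 35.7 to 53.6 Mb, H3K18la lists 25.3 to 46.0 Mb and H3K27ac lists 37.8 to 205 Mb. H3K27ac 4 dpi replicate 1 stood apart with the 205 Mb list and, by the codes in the names of the lists, was the only library of its batch, and H3K18la 2 dpi replicate 1 had the longest list of its mark. Means of these marks over libraries are also given without them. Sequencing depth is unknown, and the length of a list moves with it, so levels were compared as ranks within a library. All positions are GRCm39, as given by the labels.

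The domains were few and held much of the H3K27me3 landscape. They were 14.0% of the shared regions but 37.8% of their bases, 27.3 of 72.3 Mb. The median domain was 21.2 kb wide, with quartiles at 17.3 and 28.5 kb, against 6.40 kb for the narrower shared regions. There were 593 domains of 20 kb or more, 230 of 30 kb or more, 57 of 50 kb or more and 6 of 100 kb or more. The widths formed a continuous tail with no gap at the threshold. Just inside it lay chr9:85717233-85732245, chr1:88206379-88221398 and chr9:121485966-121500994, at 15.013, 15.02 and 15.029 kb. Just outside lay chr4:89244265-89259262 and chr9:61216285-61231270, at 14.998 and 14.986 kb, and a region of chromosome 18 at 14.981 kb. A further 13 merged regions of at least 15 kb lacked a peak in at least 1 list and were not members.

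**Figure D1:**
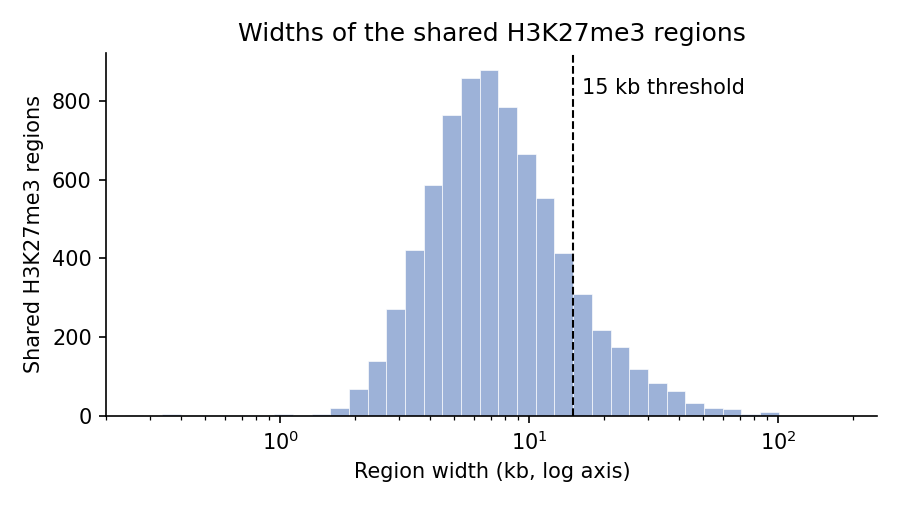
Number of shared H3K27me3 regions (y axis) by width in kb (x axis, log scale) for all 7515 regions, with the 15 kb threshold as a dashed line. The 1054 domains form the right tail, from 15.013 to 184 kb, without a break from the narrower regions.

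Domains lay on every autosome and were sparse on the X chromosome. Chromosome 2 held the most, 103, followed by chromosome 11 with 86 and chromosome 7 with 79. Of the shared regions of chromosome X, 4 of 131 were domains (3.05%), and the highest share was that of chromosome 13, with 62 of 351 (17.7%). Many lay near each other: 189 domains had another domain within 10 kb and 374 (35.5%) within 50 kb, while the median distance to the nearest other domain was 149 kb.

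The widest domain, chr7:131899866-132084001, spanned 184 kb. H3K27me3 peaks covered 173 and 182 kb of it at 2 dpi and 183 and 182 kb at 4 dpi, in 7 and 3 peaks at 2 dpi and in 1 peak in each 4 dpi library. The next were chr8:112398547-112566203 (168 kb), chr15:6967543-7108842 (141 kb), chr15:7159332-7298394 (139 kb), chr15:102830424-102960931 (131 kb) and chr14:70221093-70334586 (113 kb). In each of these 6 domains the total signal ranked between the percentiles 99.87 and 100 of shared regions in all 4 libraries. The remaining 4 of the 10 widest were chr12:16109727-16209370, chr12:12522446-12621948, chr17:44324906-44422230 and chr2:80354069-80450129, between 96.1 and 99.6 kb.

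These wide domains differed in what else they carried. No peak of H3K4me3, H3K27ac or H3K18la touched chr15:6967543-7108842, chr12:16109727-16209370 or chr12:12522446-12621948 in any library. The neighbour of the first, chr15:7159332-7298394, carried H3K4me3 over 4.12% and 2.51% of its bases at 2 dpi and 3.16% and 2.85% at 4 dpi, and chr15:102830424-102960931 carried it over 2.58%, 2.90%, 5.57% and 2.54%. Neither of them had an H3K18la peak. The domain chr14:70221093-70334586 stood at the other end, with H3K18la over 13.1% and 7.33% of its bases at 2 dpi and 7.90% and 8.66% at 4 dpi, H3K27ac over 4.52% and 3.89% and then 23.1% and 10.1%, and H3K4me3 over 5.95%, 8.92%, 13.4% and 7.47%. Every library of all 3 active marks thus had peaks in this domain, although 89.5 to 112 kb of it was inside H3K27me3 peaks.

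Within domains the mark was nearly continuous at 4 dpi and more broken at 2 dpi. H3K27me3 peaks covered 70.2% and 82.0% of domain bases at 2 dpi and 92.0% and 90.2% at 4 dpi, so that the 2 time points did not overlap. In the narrower shared regions the values were 63.7% and 73.0%, then 83.2% and 83.4%, the same order. A domain was made of 2.46 and 2.09 peaks on average at 2 dpi and of 1.66 and 1.79 at 4 dpi. In Mb, the called length inside domains was 19.2 and 22.4 at 2 dpi and 25.1 and 24.6 at 4 dpi, a difference of 4.10 Mb in means. It was 3.93 Mb with lists cut to an equal number of peaks and 5.28 Mb with stricter lists. No test is given, since these peaks also chose the domains: 920 domains overlapped a region of 15 kb or more in the 4 dpi lists alone, and 565 in the 2 dpi lists alone. The whole lists were also longer at 4 dpi, and domains held a smaller share of their length then, 31.5% and 30.5% against 36.8% and 36.7%.

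Single peaks showed the same difference. A peak of at least 15 kb on its own was found in 291 and 427 domains at 2 dpi and in 669 and 616 at 4 dpi. There were 214 domains with such a peak in all 4 libraries and 195 with none in any library, which reached 15 kb only after merging. In 130 domains both 4 dpi libraries and neither 2 dpi library had such a peak, and in 3 domains the reverse was seen.

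**Figure D2:**
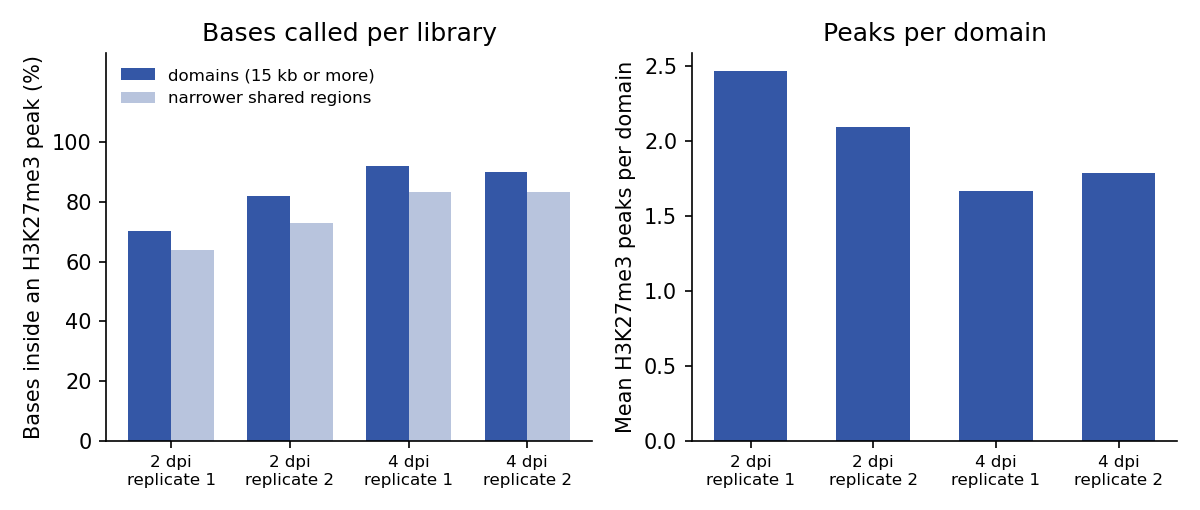
Left, percent of bases inside an H3K27me3 peak for domains and narrower shared regions in each H3K27me3 library. Right, mean number of H3K27me3 peaks per domain in each library, where the 2 dpi libraries (2.46 and 2.09) lie above the 4 dpi libraries (1.66 and 1.79).

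The signal was denser in domains as well as wider. Coverage per called base, in the authors' unnormalized units, was 14.2 and 17.9 at 2 dpi and 20.5 and 22.8 at 4 dpi in domains, against 12.4 and 13.6 and then 15.7 and 18.8 in narrower shared regions, a ratio of 1.15 to 1.31 within each library. Averaged over libraries, density rose in every step of width, from 13.8 in regions under 5 kb to 21.0 in the 57 regions of 50 kb or more. The strongest point of a domain was inside rather than at its rim: in each library 66.2% to 70.5% of domains had it in the central 50% of their width and 5.79% to 8.82% in the outer 20%. The definition sets this in part, since the edge is the outermost peak end in any library and a single library often had no peak there. On average 73.3% of bases were called in the first 5 kb inside an edge and 87.6% from 5 to 7.5 kb inside.

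The next question was which active marks entered the domains, which the choice of domains did not use. H3K4me3 covered 4.85% and 4.95% of domain bases at 2 dpi and 7.35% and 4.16% at 4 dpi, a mean of 5.33% ± 1.39 (SD, n = 4). H3K27ac covered 1.77% and 0.778% at 2 dpi and 9.0% and 1.64% at 4 dpi, 3.30% ± 3.83 (SD, n = 4), or 1.40% ± 0.54 (SD, n = 3) without 4 dpi replicate 1. H3K18la covered 2.50% and 1.02% at 2 dpi and 1.05% and 1.19% at 4 dpi, 1.44% ± 0.71 (SD, n = 4), or 1.09% ± 0.089 (SD, n = 3) without 2 dpi replicate 1. No H3K4me3 library fell within the range of H3K18la, whereas the range of H3K27ac held those of both other marks.

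H3K4me3 covered 3.89 percentage points more of the domains than H3K18la (exact permutation test over 4 libraries against 4, 2-sided, p = 0.0286, the smallest possible, adjusted p = 0.0857 over 3 pairs of marks). The difference of 2.03 points between H3K4me3 and H3K27ac did not exceed the spread between libraries (exact permutation test, adjusted p = 0.543). Without H3K27ac 4 dpi replicate 1 it was 3.93 points, and the same test gave an adjusted p of 0.0429. H3K18la lay 1.86 points below H3K27ac (exact permutation test, adjusted p = 0.543) and 0.05 points above it without that library, with an adjusted p of 0.943. The lead of H3K4me3 shrank with stricter lists, which keep the peaks with a maximum signal above the median of their list. It was then 0.773 points over H3K18la (exact permutation test, adjusted p = 0.171) and 0.155 points over H3K27ac (exact permutation test, adjusted p = 0.943). The paper states that all marks were profiled in the same samples, but the labels do not say which libraries share mice. The tests therefore take libraries of different marks as unrelated, and they pool both time points.

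By presence, H3K4me3 was again the most frequent active mark of the domains. It had a peak in 37.0% ± 3.98 of domains (SD, n = 4 libraries), H3K27ac in 21.0% ± 9.66 (16.4% ± 3.73, n = 3, without 4 dpi replicate 1) and H3K18la in 15.4% ± 5.48 (12.7% ± 0.77, n = 3, without 2 dpi replicate 1). H3K4me3 was present in all 4 of its libraries in 289 domains (27.4%) and absent from all 4 in 555 (52.7%). H3K27ac was present in all 4 in 90 domains (8.54%) and absent from all in 648, and H3K18la in 90 (8.54%) and absent from 791. No active mark was found in any of the 12 libraries in 394 domains (37.4%). All 3 marks were present in all their libraries in 34 domains, and H3K4me3 in all 4 of its libraries with neither other mark in any was seen in 101 domains. H3K18la in all 4 libraries went with H3K4me3 in all 4 in 46 domains and with H3K27ac in all 4 in 52, and in 18 domains it was present with no H3K4me3 peak in any library.

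Compared with narrower shared regions, domains were more often touched by an active mark but were not covered to a larger extent. H3K4me3 in all 4 libraries was found in 15.4% of narrower regions, H3K27ac in 5.54% and H3K18la in 3.16%, and 60.0% had no active mark. A wider region has more bases in which a peak can fall. Per base, H3K4me3 covered 6.47% of the narrower regions, 1.14 points more than of domains, with domains lower in 4 of 4 libraries (exact sign-flip permutation test, p = 0.125, the smallest possible). H3K27ac covered 4.79%, 1.49 points more than of domains, also in 4 of 4 libraries (exact sign-flip permutation test, p = 0.125), and 0.876 points more without 4 dpi replicate 1. For H3K18la the difference was 0.055 points and its direction split 2 to 2 (exact sign-flip permutation test, p = 0.75). With width, H3K4me3 presence in all 4 libraries rose from 14.5% below 5 kb to 22.3% at 15 to 20 kb and 52.6% at 50 kb or more, while its share of bases went from 8.98% to 5.68% and 4.87%.

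**Figure D3:**
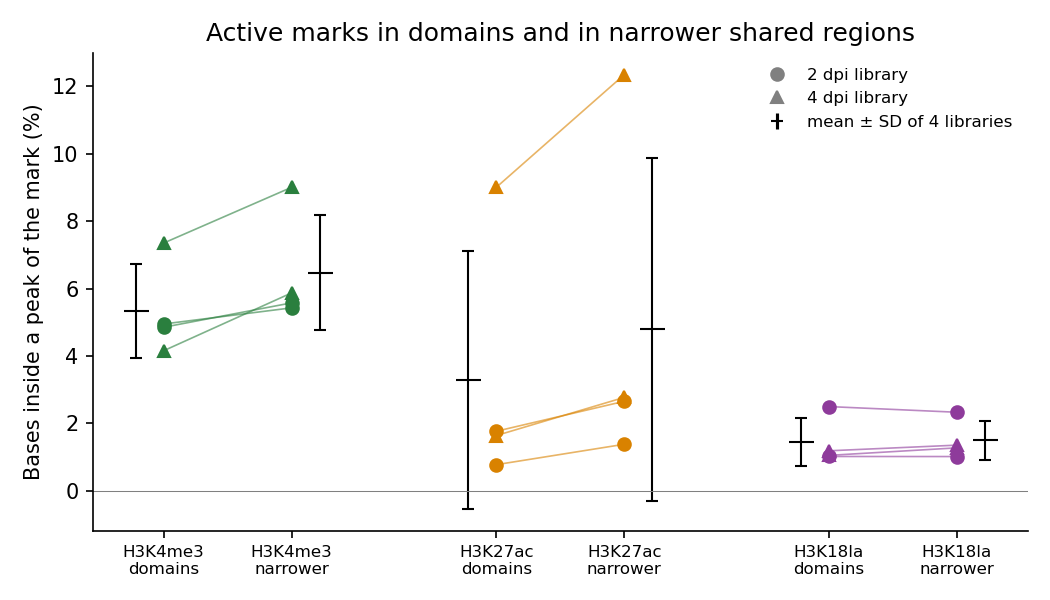
Percent of bases inside a peak of each active mark (y axis) in domains and in narrower shared regions, 1 point per library joined by a line, with mean ± SD of 4 libraries in black. H3K4me3 and H3K27ac lie lower in domains in 4 of 4 libraries, and the H3K27ac point at 9.0% and 12.3% is 4 dpi replicate 1.

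The active peaks inside domains ranked low within their own lists, except for H3K18la. Ranked by maximum signal within a list, H3K4me3 peaks in domains had a median percentile of 24.6 and 26.4 at 2 dpi and 25.1 and 27.5 at 4 dpi, against 50.8 to 50.9 for peaks elsewhere, a difference of -24.9 ± 1.34 (SD, n = 4) that was below 0 in 4 of 4 libraries (exact sign-flip permutation test, p = 0.125). For H3K27ac the medians were 35.3, 40.1, 37.0 and 40.6, a difference of -11.6 ± 3.68, again below 0 in 4 of 4 (exact sign-flip permutation test, p = 0.125) and -11.0 without 4 dpi replicate 1. H3K18la peaks in domains had medians of 45.9, 46.6, 51.6 and 49.0, close to those of H3K18la peaks elsewhere, with a difference of -1.60 ± 2.47 that was above 0 in 1 of 4 libraries (exact sign-flip permutation test, p = 0.375) and -0.74 without 2 dpi replicate 1. The low ranks were not particular to domains. By total signal of shared regions, averaged over libraries, the median H3K27ac percentile was 41.0 in domains and 39.9 in narrower shared H3K27me3 regions. It was 48.3 where no H3K27me3 was called. For H3K4me3 these were 38.0, 35.5 and 51.2. Domains held 3.22% of H3K4me3 peaks, 1.01% of H3K27ac peaks and 1.33% of H3K18la peaks on average.

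H3K4me3 sat on the methylated stretches of the domains rather than in their gaps. At the same time point, 94.6% and 93.8% of H3K4me3 bases in domains lay on bases called for H3K27me3 at 2 dpi and 97.1% and 96.3% at 4 dpi, where the called share of all domain bases was 76.1% at 2 dpi and 91.1% at 4 dpi, averaged over the libraries of each time. The excess was 11.8 ± 7.22 points (SD, n = 4) and above 0 in 4 of 4 libraries (exact sign-flip permutation test, p = 0.125). For H3K18la it was 0.09 ± 0.59 points (exact sign-flip permutation test, p = 0.875) and for H3K27ac -0.84 ± 2.97 points (exact sign-flip permutation test, p = 1), or 0.22 and -1.24 points without the library of each mark that stood apart. The called share of all domain bases includes the rims, which were called less. From 5 to 7.5 kb inside an edge it was 75.1% and 86.3% at 2 dpi and 95.1% and 94.1% at 4 dpi. The excess was not tested against position within a domain. Peaks of bulk nuclei do not tell whether both marks lay in the same cell, and more marked cells cannot be told apart from more of a mark per cell.

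The edges separated H3K4me3 from the other active marks. From 5 to 7.5 kb inside an edge, H3K4me3 covered 6.13% ± 1.71 of bases (SD, n = 4), against 3.60% in the first 5 kb inside, 3.23% in the first 5 kb outside and 2.73% from 5 to 10 kb outside. H3K27ac ran the other way, with 3.31% ± 3.91 at 5 to 7.5 kb inside, 4.52% in the first 5 kb outside and 6.41% from 40 to 50 kb outside. Without 4 dpi replicate 1 these were 1.36% ± 0.46 (SD, n = 3), 2.73% and 4.10%. H3K18la went from 1.24% ± 0.65 inside to 1.95% and 2.32% at the same distances outside, and without 2 dpi replicate 1 from 0.921% to 1.62% and 1.95%. Between 5 to 7.5 kb inside and 5 to 10 kb outside, the change was 3.41 points for H3K4me3, -1.69 for H3K27ac and -0.776 for H3K18la, each in the same direction in 4 of 4 libraries (exact sign-flip permutation test, p = 0.125 for each). The edge is the outermost H3K27me3 peak end in any library, and outside bases can belong to other H3K27me3 regions: 18.1% of bases in the first 5 kb outside were inside an H3K27me3 peak, against 73.3% in the first 5 kb inside.

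**Figure D4:**
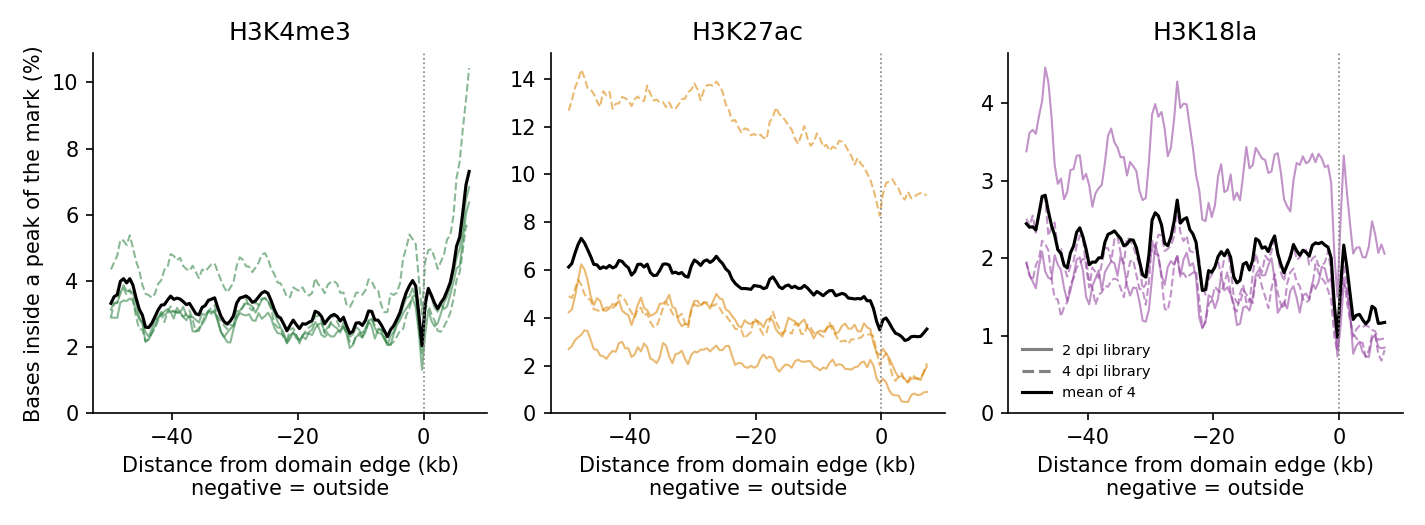
Percent of bases inside a peak of H3K4me3, H3K27ac and H3K18la (y axes, each with its own scale) by distance from the domain edge in kb (x axis, negative values outside), 1 coloured line per library and the mean of 4 in black. H3K4me3 is highest toward the interior, at 6.13% from 5 to 7.5 kb inside, while H3K27ac and H3K18la are lower inside than outside.

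A few domains were covered by active marks over much of their length. The most covered for all 3 marks was chr6:47648373-47663973, 15.6 kb wide, where H3K4me3 covered 80.7%, 80.6%, 100% and 81.8%, H3K27ac 95.8% to 100% and H3K18la 100%, 20.4%, 94.0% and 65.6% of the bases. Its H3K27me3 peaks measured 1.93 and 1.92 kb at 2 dpi and 12.5 and 15.6 kb at 4 dpi, so it was a member through its 4 dpi width, with active marks at both times. By contrast, chr7:131144908-131161957 (17.1 kb) was inside H3K27me3 peaks over 15.9 to 17.0 kb in all 4 libraries and was covered by H3K4me3 over 72.5%, 54.5%, 81.6% and 32.9%, with H3K27ac at 6.53% or less and no H3K18la. The domain chr2:56983683-57008130 (24.4 kb) held every mark with little spread, with H3K4me3 over 42.5% to 49.1%, H3K27ac over 16.1% to 27.5% and H3K18la over 15.4% to 18.8% of its bases.

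Other combinations were seen among the most covered domains. At chr1:170891139-170917034 and chr1:57003405-57029433, H3K4me3 covered 31.9% to 87.0% and 44.4% to 54.9% of bases, with H3K18la at 10.8% or less in the first and absent from the second. H3K27ac covered 53.7% and 36.7% of the first at 2 dpi and 85.5% and 7.66% at 4 dpi. It covered 7.74% to 10.3% of the second. H3K27ac and H3K18la shared chr16:95612955-95633968, where H3K18la covered 48.2%, 38.0%, 20.7% and 34.7% and H3K27ac 17.7% to 59.8%, while H3K4me3 was found in 1 library, at 10.3%. The domain chr10:82973743-82988907 had no H3K4me3 peak in any library, with H3K18la at 64.6%, 25.3%, 15.1% and 19.8%, and chr4:105093829-105126947 had H3K18la over 11.5% to 43.0% and H3K4me3 over 2.83% to 5.07%. H3K18la, H3K27ac and H3K4me3 met at chr8:35263445-35284172, over 25.5% to 39.4%, 34.8% to 72.4% and 36.5% to 48.2% of bases. The last of the domains with the most H3K27ac were chr1:88206379-88221398, with 55.7% to 95.4%, and chr2:136950412-136966207, with 25.1% to 63.6%.

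From 2 to 4 dpi, H3K27me3 was tested over all shared regions by ranking their total signal within each library, turning ranks into normal scores and fitting limma. A shift is the mean score of the 4 dpi libraries minus that of the 2 dpi libraries. At an adjusted p under 0.05, 48 domains rose (4.55%) and 2 fell (0.190%), against 0.892% and 0.0532% of all 7515 shared regions. The median shift over domains was 0.03, and -0.03 over all shared regions. The median standard error (SE) of the shift was 0.083 in domains and 0.188 over all shared regions. A shift of a given size was thus called more readily in domains, and the share called does not measure how much they changed. Widths pooled over both times chose the domains, so a region that grew wide at 4 dpi could enter by its 4 dpi width, and the count is a description. Of the 48, 38 were among the 403 domains that reached 15 kb in the 4 dpi lists alone and not in the 2 dpi lists alone, and 10 were among the 517 that reached 15 kb at each time alone (1.93%).

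In the 48 domains, the median share of bases called was 34.5% and 43.9% at 2 dpi and 91.8% and 93.1% at 4 dpi, values that the choice of these domains by width and total signal sets in part. Over all 1054 domains both 4 dpi libraries had a longer called length than both 2 dpi libraries in 598 (56.7%) against 43.4% of shared regions, and the reverse in 28 (2.66%) against 5.34%. The limma calls rest on total signal, which sums over the called length. By maximum signal, and by mean signal per called base, limma called 0 domains in either direction, with smallest adjusted p of 0.0516 and 0.590. By total signal 298 of the 1054 domains had an unadjusted limma p under 0.05, against 1153 of all 7515 shared regions. Without 2 dpi replicate 2, 133 domains rose, and without 4 dpi replicate 2, 7 rose.

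Of the 5 domains with the smallest p among those that rose, 4 reached 15 kb at 4 dpi alone, and their values are given as a description, with no p. At chr14:31645178-31673337 (28.2 kb) peaks covered 5.78 and 7.65 kb at 2 dpi and 27.7 and 23.5 kb at 4 dpi, and the percentile of total signal went from 54.5 and 61.3 to 93.2 and 91.8 (shift 1.24). At chr5:122122933-122144439 (21.5 kb) 4.42 and 5.72 kb became 20.9 and 19.6 kb (shift 1.59). No active mark was found in either domain in any library.

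At chr2:173365396-173390576 peaks measured 4.35 and 2.88 kb at 2 dpi and 19.7 and 24.8 kb at 4 dpi (shift 1.91). The only active peak there was of H3K27ac in 4 dpi replicate 1, over 32.8% of the bases. At chr19:29140509-29166162, 10.6 and 14.4 kb became 25.2 and 25.1 kb (shift 0.77). The remaining domain, chr16:10618627-10670668 (52.0 kb), reached 15 kb at each time alone. It carried H3K4me3 in every library, over 5.53% to 9.35% of bases, and went from 21.9 and 31.1 kb to 49.4 and 51.0 kb (shift 0.72, SE 0.08, limma adjusted p = 0.00982). By maximum signal its adjusted p was 0.754. The p by total signal is a description too, since total signal sums over the called length, which also chose the domains.

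Among the domains named for their active marks, 2 others that reached 15 kb at 4 dpi alone had large shifts. The domain chr6:47648373-47663973 described above was at the percentiles 11.4 and 2.50 at 2 dpi and 66.1 and 83.7 at 4 dpi (shift 2.28), and chr10:82973743-82988907 at 41.3 and 51.3, then 76.5 and 76.4 (shift 0.81).

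The 2 domains that fell were among the strongest and moved little. Their p-values rest on total signal in the same way and are given as a description. At chr9:91230060-91289302 (59.2 kb) the percentile was 99.7 and 99.7 at 2 dpi and 99.3 and 99.4 at 4 dpi (shift -0.29, SE 0.04, limma adjusted p = 0.031), while the called length stayed between 55.1 and 58.3 kb and H3K4me3 covered 7.85% to 9.29% of bases. Without 2 dpi replicate 1 the adjusted p was 0.0941. At chr12:12522446-12621948, which had no active mark, it was 99.7 and 99.7, then 99.4 and 99.0 (shift -0.34, SE 0.06, limma adjusted p = 0.0459), and that call was lost without 2 dpi replicate 1 (0.0894), 2 dpi replicate 2 (0.0666) or 4 dpi replicate 2 (0.0925).

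H3K4me3 inside the domains moved downward more often than upward. Of 13298 H3K4me3 regions shared by the 4 H3K4me3 lists, 351 touched a domain, in 294 domains. By limma on ranks of total signal, 73 of them fell (20.8%) and 19 rose (5.41%) from 2 to 4 dpi, against 8.07% and 7.78% of all shared H3K4me3 regions. The median shift was -0.18 in domains and 0.01 over all. Among 1062 regions in narrower shared H3K27me3 regions 87 fell (8.19%) and 63 rose (5.93%), and among 11392 with no H3K27me3 peak in any library 866 fell (7.60%) and 929 rose (8.15%). The difference between these groups was not tested. With the percentile of each region averaged over all 4 libraries, the median was 38.0 in domains, 51.2 where no H3K27me3 was called and 35.5 in narrower regions.

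The fall of H3K4me3 depended on the measure and on the libraries in number, and not in direction. By maximum signal 10 regions in domains fell and 1 rose, and 70 of the 73 had a maximum signal shift below 0. In 16 of the 73 the called length was shorter in both 4 dpi libraries than in both 2 dpi libraries. Without 4 dpi replicate 1, which had the longest H3K4me3 list, 41 fell and 7 rose, and without 4 dpi replicate 2, 28 fell and 5 rose. Without 2 dpi replicate 1, 65 fell and 36 rose. The 73 regions lay in 68 domains, of which 1 was called higher and 1 lower for H3K27me3, and the median H3K27me3 shift of these 68 was -0.04. In the 48 domains that rose for H3K27me3 there were 10 shared H3K4me3 regions, of which 1 fell and 0 rose by limma.

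**Figure D5:**
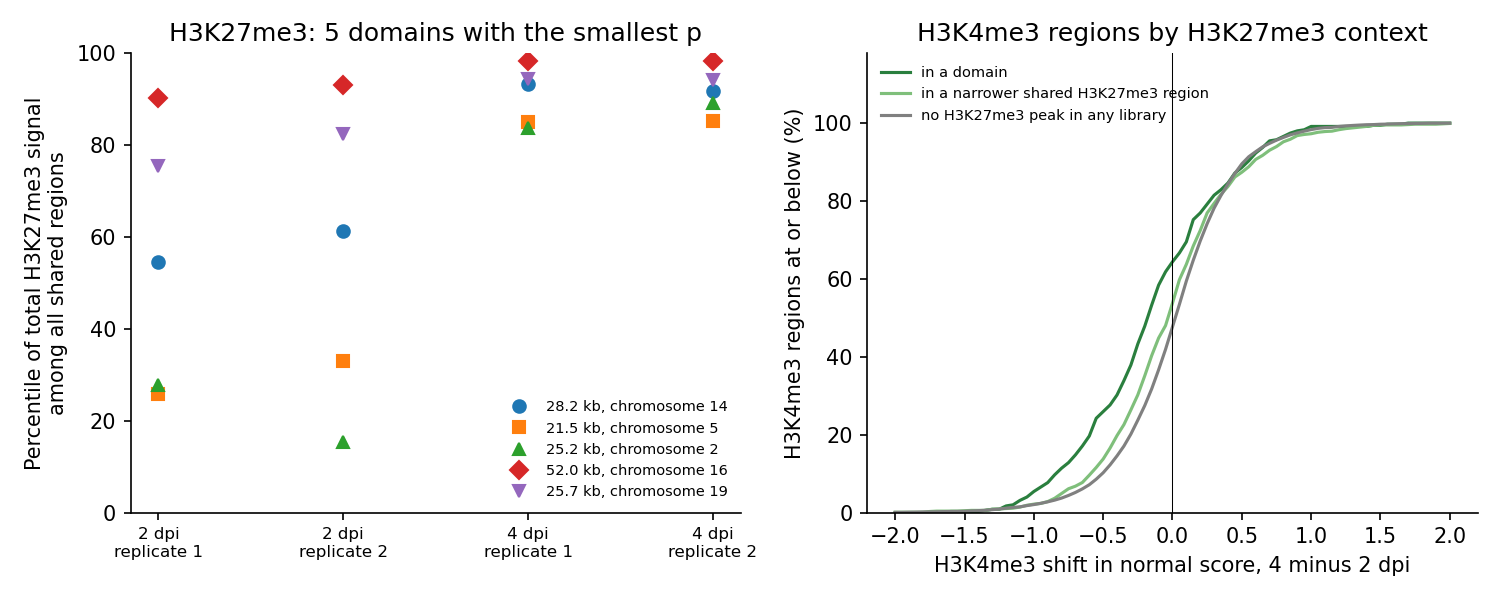
Left, percentile of total H3K27me3 signal among 7515 shared regions in each library for the 5 domains that rose with the smallest p. Right, percent of H3K4me3 regions (y axis) with a shift in normal score, 4 minus 2 dpi, at or below the value on the x axis, for 351 regions in domains, 1062 in narrower shared H3K27me3 regions and 11392 without H3K27me3, where 64.4% of regions in domains and 47.7% of those without H3K27me3 lie below 0 and the curves cross at upper values.

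The H3K4me3 regions named here have the smallest p in each direction and were chosen after their values were seen. The region chr12:95656978-95666665, in a 26.8 kb domain, fell from the percentiles 99.8 and 99.7 at 2 dpi to 98.3 and 98.1 at 4 dpi (shift -0.70, SE 0.08, limma adjusted p = 0.00033). An H3K18la region at the same place, chr12:95658159-95665639, fell from 95.2 and 94.1 to 59.9 and 67.1 (shift -1.27, SE 0.19, limma adjusted p = 0.0214). That call was lost without 2 dpi replicate 1 (limma adjusted p = 0.124), without 2 dpi replicate 2 (0.101) and by maximum signal (0.336). It was the only H3K18la region in a domain that fell, and H3K27me3 of that domain shifted by -0.04 (limma adjusted p = 0.803). At chr13:83862709-83871516 H3K4me3 fell from 67.4 and 55.6 to 7.92 and 10.9 (shift -1.62, SE 0.21, limma adjusted p = 0.00079), in a domain whose H3K27me3 shift was also -0.04. Among the regions that rose, chr8:35271218-35278933 went from 91.2 and 88.3 to 96.3 and 97.4 (shift 0.59, SE 0.10, limma adjusted p = 0.00403), in the domain chr8:35263445-35284172 described above. By maximum signal it was not called (limma adjusted p = 0.773).

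For H3K27ac and H3K18la few regions in domains were called over time. Of 132 shared H3K27ac regions in domains 1 rose (0.758%) and 0 fell by limma, against 0.178% and 0.00741% of 13494, and 24 had an unadjusted p under 0.05. Of 113 shared H3K18la regions in domains 1 rose and 1 fell (0.885% each), against 0.0429% and 0.0751% of 9325. Shifts of 1 normal score were simulated in regions drawn at random from all shared regions of each mark. They were recovered in 38% of H3K27ac and 54% of H3K18la regions, against 86% for H3K4me3 and 84% for H3K27me3. Changes of this size could thus be missed in H3K27ac and H3K18la, and recovery inside domains alone was not measured. False calls in these simulations numbered 2 for H3K27ac, 6 for H3K18la, 2 for H3K4me3 and 10 for H3K27me3. In the data, 4 H3K18la regions rose and 7 fell over the whole genome, so single H3K18la calls are uncertain.

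The regions that rose for both marks touched the same domain, chr13:13565887-13584202, where an H3K4me3 region rose too. There H3K27ac went from the percentiles 96.9 and 97.0 to 99.4 and 99.6 (shift 0.73, SE 0.11, limma adjusted p = 0.0289), H3K18la from 98.8 and 99.1 to 99.8 and 99.8 (shift 0.56, SE 0.10, limma adjusted p = 0.048) and H3K4me3 from 96.2 and 97.5 to 98.8 and 99.0 (shift 0.43, SE 0.09, limma adjusted p = 0.00962). The 3 regions started before the domain, and the larger part of each lay outside it, so the rises are not of the domain alone. The H3K18la region was chr13:13551944-13568099 and the H3K4me3 region chr13:13558196-13570914. The H3K27ac region spanned nearly all of the domain, and the H3K27me3 shift of the domain was 0.29 (limma adjusted p = 0.326). The H3K18la call was lost without 2 dpi replicate 1 (limma adjusted p = 0.165), 2 dpi replicate 2 (0.0864) or 4 dpi replicate 1 (0.0673), and the H3K4me3 call without 4 dpi replicate 2 (0.0694). By maximum signal none of the 3 regions was called, with limma adjusted p of 0.627 to 0.908.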

How the data were processed

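Per the labels, CUT&Tag libraries were grouped by mark and time point. According to the submitters' processing notes, Trim Galore 0.6.6, Bowtie2 2.4.4, SAMtools 1.13, bedtools 2.30 and SEACR 1.3 were used, and peaks were called by the authors in each library in stringent mode at a threshold of 0.01. The deposited signal is the sum and the maximum of fragment coverage per peak, which the authors did not normalize between libraries. Depth is unknown, so no counting interval is given. The methods describe removal of blacklisted regions, and whether the deposited lists were filtered is not known.

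The labels give GRCm39 and the methods mm10. Of all peaks in the 16 lists, 255 end beyond the GRCm38 end of their chromosome, and GRCm39 was taken as the build. Only a GRCm38 annotation was used here as a check of chromosome ends, and no position was converted. Gene names, gene lists, cell type markers and promoter sequences were therefore not analysed here. Domains are given by position.

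Peaks on chromosomes 1 to 19, X and Y were merged at 1 bp of overlap. Total signal was summed per region and library, ranked within the library, turned into normal scores and tested with limma 3.58.1 (R 4.3.3, trended and robust variance) over all regions shared by the 4 lists of a mark, with Benjamini-Hochberg adjustment and a threshold of 0.05. The fit was tested on simulated data. Values per library were compared with exact permutation tests in Python 3.11.15. The limma p-values measure the spread between 2 libraries per time point. Those of the permutation tests measure the spread over the 4 libraries of a mark, with both times pooled. For H3K27me3 at 4 dpi the replicates followed the labels, as file names number them the other way round.

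The domains and tests were chosen with earlier results of these data known. Named domains were the 10 widest, up to 5 called with the smallest p in each time direction, the 5 most covered by each active mark, and the 3 regions on each side of 15 kb. Alternatives were other widths (10 and 20 kb), maximum and mean signal, log2 of scaled signal, a replicate block, stricter lists, lists cut to an equal number of peaks, wider merging (1000 bp), a 500 bp overlap, autosomes only, and leaving out each library. The set that reached 15 kb at each time point alone, the edge zones, the ranks of active peaks, the overlap with called bases and the classes of H3K4me3 regions were added after seeing the data.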

Additional observations from a re-analysis of the deposited data

Results flagged for a closer look

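Among the 4 libraries of a mark, a library was set aside for a closer look when its gap to the nearest other library took up more of the whole range than Dixon's 95% critical value allows. Chance gives such a gap in about 1 in 20 groups. H3K27ac 4 dpi replicate 1 met this for the bases covered in domains (9.0%) and in narrower shared regions (12.3%), and H3K18la 2 dpi replicate 1 for the bases covered in domains (2.50%) and the share of domains with a peak (23.5%). H3K4me3 4 dpi replicate 1 met it for the bases covered in narrower shared regions (9.01%) and the share of domains with a peak (43.0%). Each of these libraries had the longest list of its mark. H3K27ac 2 dpi replicate 2, the shortest list of its mark, met it for the overlap of H3K27ac with called H3K27me3 bases, at -5.24 points from the called share of domain bases.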

How the results depend on the processing

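Of 125 alternatives, 89 kept direction and side of the threshold or, for counts, stayed within 1.5 times. For part of these the side was fixed in advance by the number of libraries. The exact sign-flip permutation tests of domains against narrower regions could not pass the threshold in any setting. The same holds for the called length between time points, whose peaks also chose the domains. In both, only the direction could change, so the 89 overstate how stable the results were. The H3K27me3 time counts were the most dependent. Domains that rose numbered 0 by maximum signal and 0 by mean signal per called base, 110 with a replicate block, 10 where each time point alone had to reach 15 kb, and 7 to 133 with 1 library left out. Domains that fell numbered 0 by maximum signal, by mean signal and by log2 of scaled signal, 6 with the replicate block and 0 to 12 with 1 library left out. Changed H3K4me3 regions in domains numbered 92, but 11 by maximum signal and 33 to 115 with 1 library left out. For H3K27ac, 1 changed region became 0 by maximum signal and by scaled log2 signal, 10 with the block and 2 to 5 with 1 library left out, and for H3K18la 2 became 0 by maximum signal, 5 with the block and 0 to 6. With the block, changed H3K4me3 regions in domains numbered 100, of which 21 rose and 79 fell. The replicate numbers do not pair the libraries: deviations of same-numbered libraries correlated at -0.05 (H3K27me3), 0.00 (H3K4me3), 0.09 (H3K27ac) and -0.06 (H3K18la) over regions. The cause of these changes was not tested.

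With 1 library left out, H3K4me3 minus H3K27ac coverage was 1.19 to 3.93 points, H3K4me3 minus H3K18la 3.21 to 4.28, H3K18la minus H3K27ac -2.70 to 0.045, and the called length at 4 dpi 2.48 to 5.71 Mb above 2 dpi. Stricter lists gave smaller differences: H3K4me3 minus H3K27ac was 0.155 points, H3K4me3 minus H3K18la 0.773 and H3K18la minus H3K27ac -0.618. H3K18la coverage in domains minus narrower regions turned to 0.0068 points with domains of 20 kb or more, to 0.035 with stricter lists and lay between -0.13 and 0.00086 with 1 library left out, the latter without 4 dpi replicate 1. The number of domains was 2221 at 10 kb, 593 at 20 kb and 876 to 1024 from 3 lists. With 2 libraries per time point, a difference of 1 value between time points could not reach p below 0.333, and unknown depth limits all comparisons of called length.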
